A study of Mus musculus with 4 samples.

Results

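The genes described here are 44 mouse genes whose products copy DNA: the proteins that mark and license replication origins, those that start the forks, the sliding clamp and its loader, the single-strand binding protein, the replicative polymerases, the enzymes that join Okazaki fragments and those that make deoxynucleotides. They were chosen by name, not by their measured values, though with earlier results of these data known. The array held 51 probes for them out of 39429 probes in all, with 1 probe for 37 genes and 2 probes for 7 genes. By the gene name printed on the array 37 genes were found. The other 7, *Orc1* to *Orc6* and *Cdc45*, stand there under older names and were found by their accession. For each gene the probe with the highest mean signal was used, and second probes are given where they differ.

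RNA was measured on 4 Agilent arrays with a single dye. Lin- cells, cells without the surface markers of mature blood lineages, came from mid-gestation fetal livers of *Ebf1*-/- mice, so that all 4 samples lack the B cell factor EBF1. The 2 EMPTY samples were infected with the control retrovirus, an MDH1-PGK-GFP vector, and the 2 *Mir195* samples with the retrovirus that also carries a segment around *Mir195* cloned from a human leukaemia cell line. The culture held the cytokines SCF, IL-7 and Flt ligand at 10 ng/mL each, which the submitters describe as a stimulus for B cell development, and OP9 stroma cells are the support named in the general methods. The comparison asks which transcripts differ when *Mir195* is added to progenitors that cannot make EBF1. The mature mouse miRNA is given with its seed, bases 2 to 8, in capitals, followed by a family member with the same seed (RefSeq, GRCm38.p6, both on the + strand).
mmu-miR-195a-5p, chr11:70235062-70235082: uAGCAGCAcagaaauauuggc
mmu-miR-16-5p, chr3:69009918-69009939: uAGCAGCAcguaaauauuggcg
The seed of this family is known for pairing with transcripts of G1 cyclins and kinases, the proteins that lead a cell into S phase.

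In late mitosis and G1 the origin recognition complex, ORC, sits on origins and, with CDC6 and CDT1, loads the MCM2 to MCM7 helicase. In S phase CDC45 and the GINS complex switch the helicase on, and the polymerases follow with the PCNA clamp. Most of these genes are transcribed in proliferating cells under E2F factors, which RB family proteins hold in check until G1 kinases act. Proliferation of B cell progenitors depends on IL-7.

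The scanner software flagged 21 to 65 spots per array as outliers and 0 as saturated, and placed 23678 to 24700 probes well above background. Across probes Mir195 2 correlated with the other arrays at 0.983 to 0.987, and the other 3 pairs of arrays at 0.994 to 0.997. Levels are given as the log2 signal of a probe minus that of the 75th percentile on its array, so a level of 0 is as bright as that percentile. All 4 arrays lie on 1 slide, the EMPTY arrays first and the *Mir195* arrays last, and slide position and virus cannot be told apart. Nothing states that the 2 samples of a virus came from separate cultures, so a p measures only the spread between these samples. Among progenitor markers *Flt3*, *Il7r*, *Kit* and *Ptprc* were well above background on all 4 arrays. The probe of *Ebf1* itself read 1.85 to 2.02 over the 4 arrays, with overlap between the viruses, and where it lies relative to the disrupted part of the gene is not given in the sources used here. In bulk RNA, fewer cells that replicate DNA and less transcript per cell cannot be told apart.

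All 44 genes were well above background on all 4 arrays. The test covered 43 of them, since the probe of *Mcm4* carried an outlier flag on EMPTY 1. None of the 43 differed between viruses at an adjusted p of 0.05 (limma, Benjamini-Hochberg over 23722 probes), as was the case for 0% of all tested probes, and the lowest adjusted p among the genes was 0.531. At an unadjusted p of 0.05 there was 1 gene of 43, *Orc4*, beside 8.38% of all tested probes (1988). The log2 fold change of *Mir195* over EMPTY lay within 0.25 of 0 for 42 genes and within 0.15 for 37. It was above 0 for 26 genes and below 0 for 17, with a median of 0.02 beside 0.01 over all tested probes. Scaled by the median of each array instead, 11 genes were higher and 32 lower with a median of -0.08, the same as the shift of all tested probes. A miss of the threshold does not show equal levels. The 95% interval lay within -1 and 1, that is, short of a 2-fold change either way, for 42 genes, and within -0.5 and 0.5 for 28.

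For 9 of the 43 genes (20.9%) the *Mir195* arrays were both higher than either EMPTY array, near the 23.6% of all tested probes. The reverse order held for 1 gene, *Pcna* (2.33%), against 14.0% of all tested probes. In the remaining 33 genes the arrays of the 2 viruses overlapped.

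**Figure D1:**
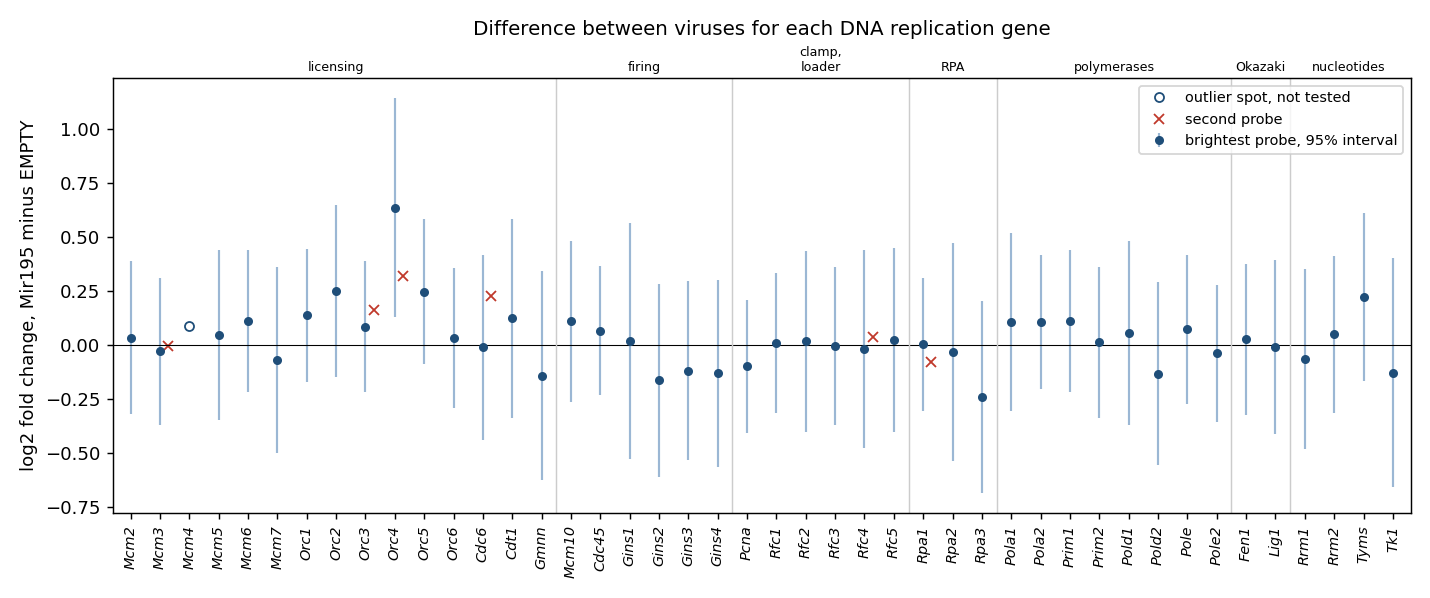
Log2 fold change of *Mir195* over EMPTY (y axis) for each of the 44 genes (x axis, grouped by role). Filled points are the brightest probe with the 95% interval from limma, the open point is *Mcm4*, which was not tested, and crosses are second tested probes. Only the interval of *Orc4* leaves out 0, from 0.13 to 1.14.

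The licensing genes showed the widest range, and it came from ORC, the complex that marks origins. All 6 ORC genes lay higher with *Mir195* in the mean, with a median log2 fold change of 0.19, although *Orc3* and *Orc6* turned to -0.02 and -0.07 with scaling by the median, and in 5 of them the arrays of the 2 viruses were separate, as in that direction for 23.6% of all tested probes. With scaling by the median 2 of the 6 were separate, *Orc4* and *Orc5*. None passed the test. The complex was set apart from the other licensing genes after its values had been seen. *Orc4*, an ATPase-like subunit of the ring, read -2.01 and -1.94 with EMPTY and -1.58 and -1.10 with *Mir195*, so that the groups were separate. Its log2 difference was 0.63, or 1.55-fold, with a standard error of 0.19 and an adjusted p of 0.531 (limma). The 2 *Mir195* arrays stood further from each other than the EMPTY arrays did, by 0.48 against 0.08. With Mir195 1 left out the log2 difference rose to 0.87 and *Orc4* passed the threshold (adjusted p = 0.0489 from limma), as did 3.71% of all tested probes (880), and with Mir195 2 left out the log2 difference was 0.40 and did not pass.

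*Orc4* has a second probe, and it gave the same order with a smaller difference. Whether the 2 probes overlap in the transcript was not tested. It read -2.07 and -2.04 with EMPTY and -1.87 and -1.59 with *Mir195*, a log2 difference of 0.32 with a standard error of 0.15 (limma, adjusted p = 0.666). The second probe is shown because both probes of *Orc4* gave the same direction and it reads through without a stop codon in 2 frames. The brightest has a stop codon in each frame and is not printed.
Orc4 second probe: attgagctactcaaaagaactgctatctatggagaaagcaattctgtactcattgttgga

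*Orc5*, the subunit that neighbours ORC4 in the ring, read -2.23 and -2.25 with EMPTY against -2.08 and -1.90 with *Mir195*. The difference was 0.25 with a standard error of 0.13 (limma, adjusted p = 0.726). *Orc2* read -1.12 and -1.25 against -1.08 and -0.80, a difference of 0.25 (standard error 0.15). In *Orc2* the highest EMPTY array and the lowest *Mir195* array were almost level, and Mir195 2 made most of the difference. *Orc1*, the ATPase subunit of ORC whose level is known to follow the cell cycle, read -3.05 and -3.06 against -2.87 and -2.97, a difference of 0.14 (standard error 0.12). *Orc3* read 2.20 and 2.26 against 2.33 and 2.30 with its brightest probe, a difference of 0.08, and 0.16 with its second probe, without overlap in either. *Orc6* was the exception, with 2.47 and 2.62 against 2.59 and 2.56 and a difference of 0.03, so that its arrays overlapped.

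**Figure D2:**
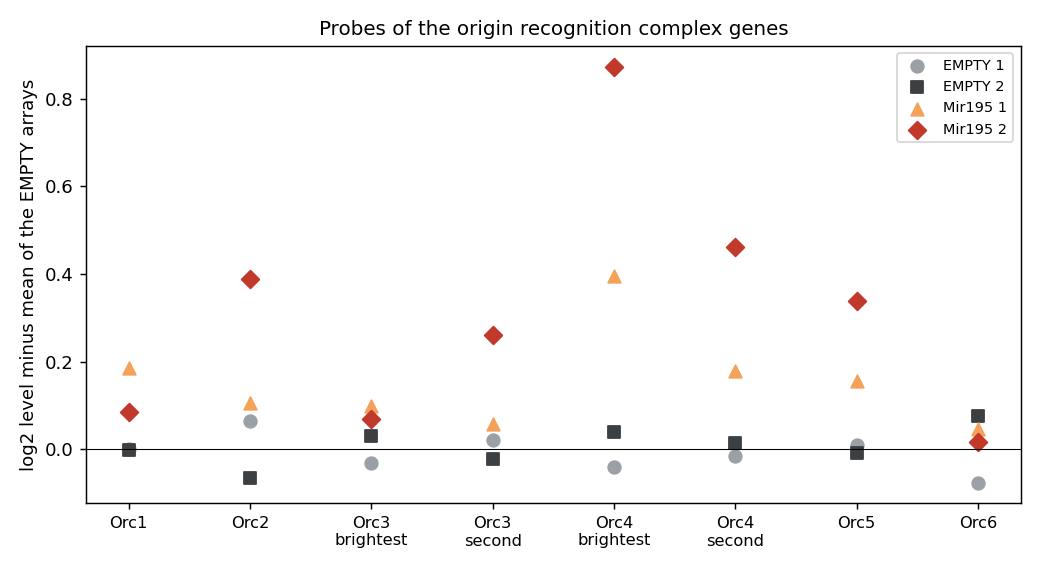
Log2 level of each ORC probe on each array minus the mean of the 2 EMPTY arrays (y axis), for the 8 probes of the 6 genes (x axis). Circles and squares are the EMPTY arrays, triangles and diamonds the *Mir195* arrays. Both *Mir195* arrays lie above both EMPTY arrays for every probe other than that of *Orc6*, and Mir195 2 lies highest for *Orc2*, *Orc4*, *Orc5* and the second probe of *Orc3*.

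The probes of *Orc1*, *Orc2*, *Orc4*, *Orc5* and the second of *Orc3* were dimmer than the 75th percentile, and dim probes as a whole read slightly higher with *Mir195*. Over the 8953 tested probes with a mean level between -4 and 0 the median log2 fold change was 0.05, 60.8% were higher and 29.4% did not overlap in that direction. Over the 9736 tested probes at 0 or above, the median was -0.02 and 15.8% did not overlap upward. The 90th percentile of the difference among the dim probes was 0.42, below the brightest probe of *Orc4* and above all other ORC probes. Of the 9 tested genes with a mean level below 0, which include *Orc1*, *Orc2*, *Orc4* and *Orc5*, 7 were higher without overlap, and of the 34 at 0 or above, 2 were higher and 1 lower without overlap. The part of signal strength in the ORC values was not tested.

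Markers of the OP9 stroma also read highest on Mir195 2 in part. *Cxcl12*, a chemokine of stroma cells, read 0.39 and 0.47 with EMPTY and 0.34 and 1.34 with *Mir195*, and *Col3a1*, a collagen, read -2.99 and -2.98 against -3.26 and -2.19. Of the 12 stroma markers, all on the array, 7 were tested, 6 of them higher and 1 lower in the mean with *Mir195* and none past the threshold. *Dcn*, *Lum*, *Pdgfra* and *Postn* were well above background on no array. *Col1a1*, *Col1a2*, *Col3a1*, *Pdgfrb*, *Fbn1*, *Cxcl12* and *Thy1* were well above background on all 4 arrays, and *Vcam1* on 2. The 12 markers' summed linear signal was 15.7 to 15.8 with EMPTY and 12.4 to 13.6 with *Mir195*, where the 75th percentile is 1. Most of it came from *Thy1*, which lymphoid cells also express. *Thy1* was the 1 tested marker that was lower, at 3.55 and 3.49 with EMPTY and 3.09 and 2.78 with *Mir195*. The sum therefore says little of the other markers. The part of stroma RNA in the ORC values was not tested. Of the other marker lists, pro-B and lymphoid progenitor genes had 9 tested with 7 higher, myeloid genes 6 tested with 5 higher, T and NK genes 5 tested with 0 higher, erythroid genes 2 tested with 0 higher and mast and basophil genes 1 tested and lower, again with 0 past the threshold.

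The helicase genes *Mcm2* to *Mcm7* stayed close to their EMPTY level. *Mcm6*, a helicase subunit, read 6.43 and 6.59 with EMPTY and 6.65 and 6.59 with *Mir195*, a difference of 0.11 (standard error 0.13), with the *Mir195* arrays higher by a margin of less than 0.01 between the nearest arrays. *Mcm4* read 4.47 and 4.49 against 4.56 and 4.57, a difference of 0.09, and with its flagged spot kept the adjusted p was 0.916 (standard error 0.11, limma). *Mcm7* was the lowest of the 6, at -0.07. *Mcm2*, *Mcm3* and *Mcm5* gave 0.03, -0.03 and 0.05. The 2 *Mcm3* probes overlap by 43 bases with 1 mismatch and are not independent.

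The loaders and their inhibitor fell on both sides of 0 without passing the test. *Gmnn*, which encodes geminin, the inhibitor of CDT1, had the lowest value of the licensing genes. It read 1.29 and 1.51 with EMPTY and 1.45 and 1.06 with *Mir195*, a difference of -0.14 (standard error 0.19), and only Mir195 2 lay below the EMPTY arrays. *Cdt1*, which brings the helicase to ORC, gave 0.12 with overlapping arrays. *Cdc6*, the ATPase that joins ORC before loading, had probes of opposite sign. The brightest gave -0.01 with overlap, and the second read -0.89 and -0.80 with EMPTY and -0.49 and -0.73 with *Mir195*, a difference of 0.23 without overlap (standard error 0.14, adjusted p = 0.796 from limma).

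Of the firing factors 3 lay higher and 3 lower, and the arrays of the viruses overlapped for all but *Cdc45*. *Cdc45*, the helicase activator, read -0.951 and -0.996 with EMPTY and -0.90 and -0.91 with *Mir195*, a difference of 0.07 (standard error 0.11). *Mcm10*, which helps the helicase to start unwinding, had the highest value of the group, with 2.29 and 2.52 against 2.58 and 2.45 and a difference of 0.11. *Gins2* had the lowest, with 0.77 and 0.95 against 0.87 and 0.52 and a difference of -0.16 (standard error 0.17). *Gins3* and *Gins4*, subunits of the same complex, gave -0.12 and -0.13, and *Gins1* gave 0.02. In each of these 3 lower GINS genes the second *Mir195* array lay below both EMPTY arrays and the first did not.

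*Pcna*, the sliding clamp that holds polymerases on DNA, was the 1 tested gene with both *Mir195* arrays below both EMPTY arrays. It read 5.13 and 5.20 with EMPTY and 5.10 and 5.04 with *Mir195*, a difference of -0.10 (standard error 0.12, adjusted p = 0.905 from limma). The 5 genes of its loader, *Rfc1* to *Rfc5*, spanned only -0.02 to 0.02. *Rfc5*, the highest, read 3.46 and 3.67 against 3.73 and 3.44. The probes of *Rfc4* gave -0.02 and 0.04, with overlapping arrays for both.

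Of the single-strand binding genes *Rpa3*, the smallest subunit, had the lowest value of all 43 tested genes. It read 3.30 and 3.48 with EMPTY and 3.32 and 2.97 with *Mir195*, a difference of -0.24 (standard error 0.17, 0.847-fold, adjusted p = 0.825 from limma). The arrays overlapped, since Mir195 1 lay between the EMPTY arrays. *Rpa2* gave -0.03. *Rpa1*, the large DNA-binding subunit with the highest fold change of the 3, read 4.71 and 4.78 against 4.78 and 4.71 with its brightest probe, a difference of 0.00. Its second probe gave -0.08, with 2.18 and 2.20 against 2.15 and 2.06 and no overlap.

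The polymerase genes spanned -0.13 to 0.11. *Prim1*, the catalytic primase subunit, was highest, with 3.01 and 3.15 against 3.24 and 3.14 and a difference of 0.11 (standard error 0.13). *Pola2*, the accessory subunit of polymerase alpha, read -1.74 and -1.80 with EMPTY and -1.62 and -1.71 with *Mir195*, also a difference of 0.11, and was the 1 gene of the group without overlap. *Pold2*, an accessory subunit of polymerase delta, was lowest, with 0.78 and 0.97 against 0.89 and 0.59 and a difference of -0.13. *Pole* gave 0.07 with its brightest probe, and its second probe was well above background on none. *Pola1*, *Prim2*, *Pold1* and *Pole2* gave 0.10, 0.01, 0.06 and -0.04.

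*Fen1*, the flap nuclease that trims Okazaki fragments, read 4.62 and 4.70 with EMPTY and 4.78 and 4.58 with *Mir195*, a difference of 0.02. *Lig1*, the ligase that joins them, read 3.69 and 3.93 against 3.91 and 3.70, a difference of -0.01. In both genes the arrays of the 2 viruses overlapped.

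Among the genes of nucleotide supply *Tyms*, thymidylate synthase, was highest. It read -3.47 and -3.39 with EMPTY and -3.35 and -3.07 with *Mir195*, a difference of 0.22 without overlap (standard error 0.15, adjusted p = 0.812 from limma), and it too is a dim probe. *Tk1*, thymidine kinase of S phase cells, was lowest, with 2.70 and 2.99 against 2.93 and 2.51 and a difference of -0.13 (standard error 0.20). *Rrm1* and *Rrm2*, the subunits of ribonucleotide reductase, gave -0.07 and 0.05.

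In most of the 44 genes the 2 arrays of a virus differed by more than the virus means did, and most genes moved together. EMPTY 2 lay above EMPTY 1 in 38 of the 44 genes, by a median of 0.18, beside 62.2% and 0.06 over all tested probes. Mir195 2 lay below Mir195 1 in 38 of 44, by a median of 0.17, while the median over all tested probes fell by 0.02. In 31 genes (70.5%) EMPTY 2 and Mir195 1 were both above EMPTY 1 and Mir195 2, an order found in 29.8% of all tested probes. The difference between the 2 EMPTY arrays exceeded that between the virus means for 32 of the 44 genes (72.7%), beside 53.7% of all tested probes. The difference between the 2 *Mir195* arrays did so also for 32, beside 63.8%. Single arrays differ more than means of 2 arrays do even with no effect of the virus, so such an excess is common.

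**Figure D3:**
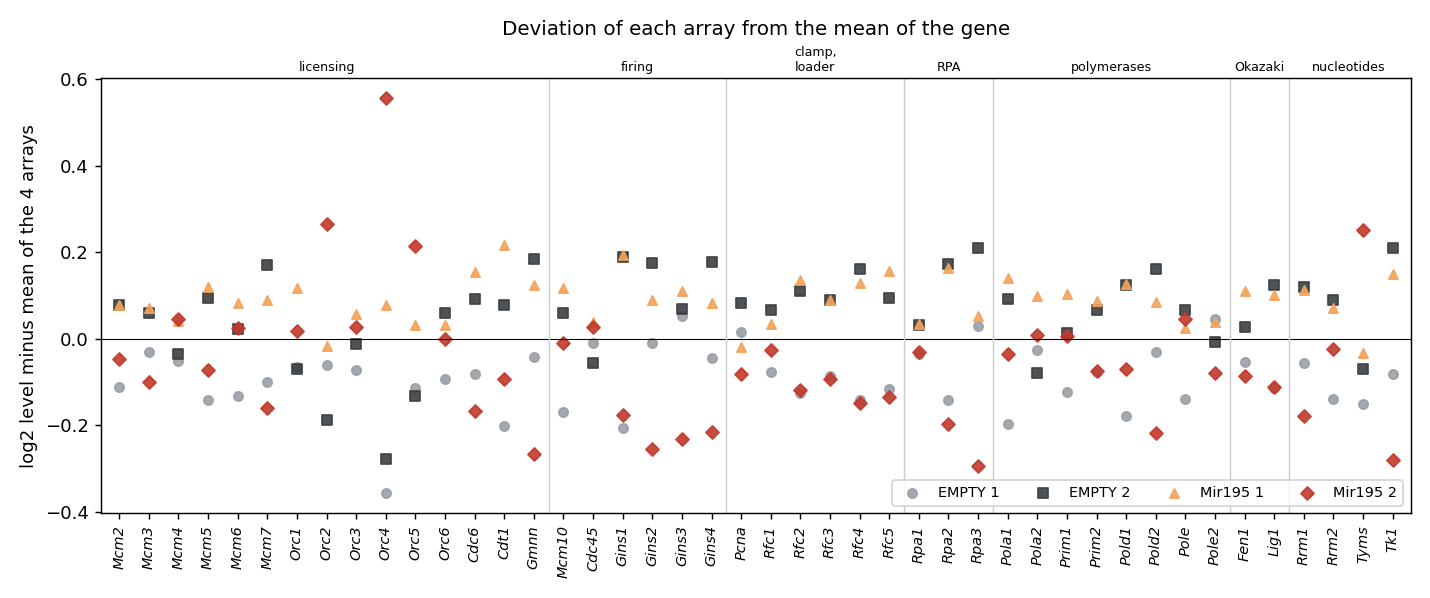
Log2 level on each array minus the mean of the 4 arrays (y axis) for the brightest probe of each of the 44 genes (x axis, grouped by role). Squares (EMPTY 2) and triangles (Mir195 1) lie above 0 for most genes and circles (EMPTY 1) and diamonds (Mir195 2) below. *Mcm4*, *Orc2*, *Orc4*, *Orc5* and *Tyms* have their highest value on Mir195 2.

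The size of this shared shift varied by gene. *Gins1* had the widest gap between the EMPTY arrays, 0.39, and fell by 0.37 from Mir195 1 to Mir195 2. *Tk1* fell by 0.43 and *Gmnn* by 0.39 between the *Mir195* arrays, and *Rpa2* rose by 0.31 between the EMPTY arrays and fell by 0.36 between the *Mir195* arrays. Among the ORC genes EMPTY 2 was above EMPTY 1 in 3 of 6 and Mir195 2 below Mir195 1 in 3 of 6, and *Orc6* had the full order. Without these 6, the other 38 genes had EMPTY 2 above EMPTY 1 in 35 and Mir195 2 below Mir195 1 in 35.

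Because of this order, the median of the genes depended on which arrays were set against each other. Mir195 1 minus EMPTY 1 gave a median of 0.17 with 42 of 44 genes higher, and Mir195 2 minus EMPTY 2 a median of -0.15 with 34 of 44 lower. Over all tested probes the same pairs gave medians of 0.07 and -0.01, with 62.5% and 48.3% higher. The crosswise pairs, Mir195 2 minus EMPTY 1 and Mir195 1 minus EMPTY 2, each gave a median of 0.02. With EMPTY 1 left out the median of the 43 tested genes was -0.07 and 10 were higher, and with Mir195 2 left out it was 0.10 and 41 were higher. Without EMPTY 2 the median was 0.11 with 35 higher, and without Mir195 1 it was -0.07 with 15 higher. The shares of all tested probes with an array left out are not given, so a shift of the whole array is part of these counts.

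**Figure D4:**
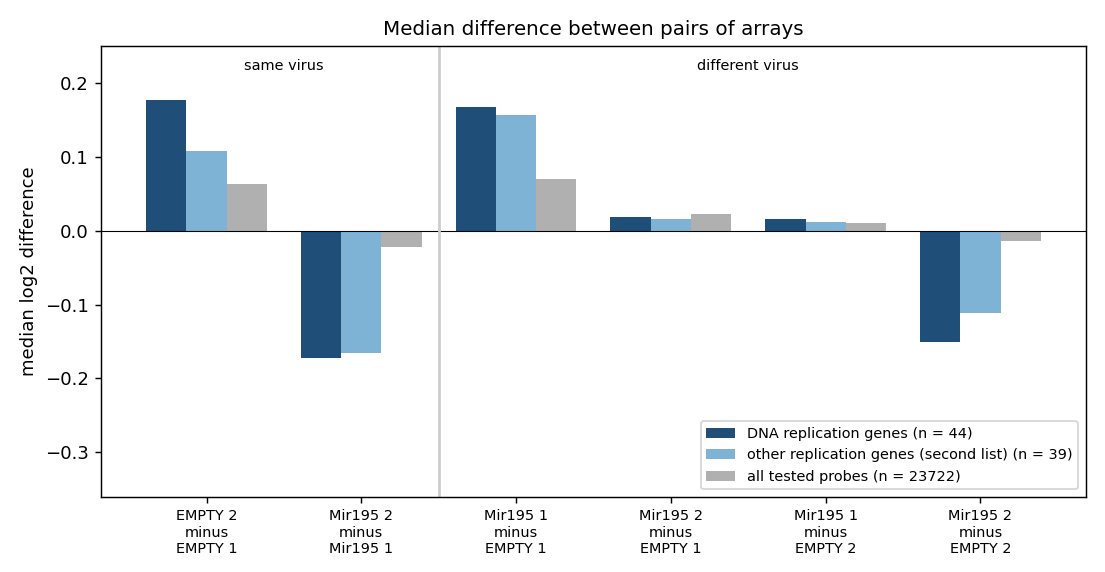
Median log2 difference between pairs of arrays (y axis), the second array minus the first as named on the x axis, for the 44 genes, for 39 other replication genes and for all 23722 tested probes. The bars of both replication sets reach 0.11 to 0.18 in size between arrays of the same virus and 0.02 or less in the crosswise pairs.

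Other genes of DNA replication, taken from a second list, were tested in the same fit. Of the 40 names on this list 39 were found on the array, and these 39 genes were all tested, 19 higher and 20 lower with *Mir195*. Their median was -0.01 and none passed the threshold (lowest adjusted p = 0.669 from limma). EMPTY 2 lay above EMPTY 1 in 27 of them and Mir195 2 below Mir195 1 in 30. Among the highest was *Ung*, which removes uracil from DNA, at 0.25. Lowest were *Rrm2b*, the reductase subunit of resting cells, at -0.30, and *Asf1b*, a histone chaperone, at -0.19.

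The E2F and RB family genes, which act upstream of the replication genes, were all tested, 13 of 13. Of these 10 were higher and 3 lower, with a median of 0.08 and none past the threshold (lowest adjusted p = 0.809 from limma). Highest were *E2f5* at 0.28 and *E2f6* at 0.16, both classed as repressive E2Fs, and lowest were *E2f7* at -0.11 and *E2f2* at -0.06. *E2f1*, an activator, gave 0.01 and *Rb1* 0.02. Here EMPTY 2 lay above EMPTY 1 in 8 of 13 and Mir195 2 below Mir195 1 in 6 of 13.

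Of 18 genes for the cyclins, kinases and inhibitors of the G1 to S step, 17 were tested and *Ccne2* was well above background on no array. None passed the threshold, with 8 higher and 9 lower. The viruses did not overlap for 2 of the higher and 5 of the lower genes, beside 23.6% and 14.0% of all tested probes. Lowest were 2 inhibitors of G1 kinases. *Cdkn2c* read -1.15 and -1.24 with EMPTY and -1.59 and -1.64 with *Mir195*, a difference of -0.42 without overlap (standard error 0.12, adjusted p = 0.523 from limma). *Cdkn2a* read -2.53 and -3.82 against -4.76 and -4.06, a difference of -1.23 (standard error 0.49), with wide spread between the arrays of EMPTY. The highest were *Chek1*, a checkpoint kinase, at 0.30, and *Wee1*, which restrains CDK1, at 0.16. Among cyclins *Ccnd2* gave -0.27 without overlap, *Ccnd1* 0.01, *Ccnd3* 0.02 and *Ccne1* 0.01.

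The promoters of the replication genes were searched for the letters that E2F factors are known to prefer. RefSeq windows from 250 bases before to 50 bases after the start were given for 36 of the 44 genes, in 44 windows. The letters searched, on both strands, were TTTGGCGC, TTTGGCGG, TTTCGCGC, TTTCCCGC, TTTGCCGC, TTTGCCGG, TTTCCCGG and TTTCGCGG, several of which can overlap on opposite strands. They were found in 17 of the 44 windows (38.6%), 1 for each of 17 genes, beside 4.51% of all 32851 windows. CCAAT, on either strand, was in 25 of the 44 (56.8%) beside 37.4% of all. Stretches before the start are shown for 4 genes, chosen after their values were seen to include genes of the shared order (*Mcm5*, *Rfc3*) and genes higher on both *Mir195* arrays (*Mcm6*, *Orc3*), on the gene's strand, with the matched letters in capitals (GRCm38.p6).
Mcm5, chr8:75109332-75109391, + strand: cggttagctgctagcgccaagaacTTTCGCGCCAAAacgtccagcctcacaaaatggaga
Mcm6, chr1:128359780-128359839, - strand: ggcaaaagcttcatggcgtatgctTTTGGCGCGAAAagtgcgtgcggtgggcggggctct
Rfc3, chr5:151651209-151651242, - strand: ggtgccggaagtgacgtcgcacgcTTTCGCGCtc
Orc3, chr4:34614964-34615007, - strand: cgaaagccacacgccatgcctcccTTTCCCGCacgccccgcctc
In *Mcm5* and *Mcm6* the capitals hold 2 matches that overlap on opposite strands, and in *Rfc3* and *Orc3* they hold 1. *Orc2*, *Orc5*, *Orc6*, *Pcna* and *Tyms* had none of these letters in their windows. A match describes the sequence and does not show that a factor binds there.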

How the data were processed

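RNA from Lin- cells was labelled with Cy3 (100 ng per sample) and hybridised to 4 arrays. The authors deposited, per spot, the intensity after removal of a spatial trend by Agilent Feature Extraction (version 11.5.1.1 per the labels, 9.1.3.1 per the file headers), and a table of log2 values normalized to the 75th percentile in GeneSpring. No local background was subtracted from the intensity, and dim spots carry a positive surrogate. Here the log2 intensity was averaged over the spots of a probe without outlier spots, and the 75th percentile of each array was subtracted. Samples were grouped by title. A probe was tested if 1 virus or both had it well above background on each array and no spot was an outlier (23722 probes). They were compared with limma 3.58.1 in R 4.3.3 (lmFit and eBayes, two-sided, Benjamini-Hochberg, threshold 0.05), read with the package data.table, version 1.17.8. The steps were tested on simulated data. With 2 arrays against 2, an exact permutation test cannot give a p under 0.333, and the number of arrays limits the precision. Symbols were updated by accession to GRCm38.p6 for 26055 probes.

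The genes and lists were chosen with earlier results of these data known. Values per array are given for genes past the threshold, genes whose viruses do not overlap and the highest and lowest of each role. Genes with probes of opposite sign are named, and of the other lists the 2 highest and 2 lowest are named, less genes not reported here. Further genes were named after their values were seen: the ORC and *Mcm* genes, *Mcm4*, the remaining genes by fold change, the cyclins, *E2f1*, *Rb1*, and the markers. Alternatives were the normexp correction (offset 50), quantile and median scaling, the percentile of probes detected on all arrays, the authors' log2 values, a looser and a stricter filter, trend and robust eBayes, the replicate block, the methods' t-test, the mean of a gene's probes and each array left out. A crossed block and keeping outlier spots were added after seeing the data.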

Additional observations from a re-analysis of the deposited data

How the results depend on the processing

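The count of replication genes past the threshold was 0 under every alternative other than leaving out Mir195 replicate 1, so that its range with each array left out was 0 to 1. With an array left out, the lone array is assumed to vary like the others. The number of all probes past the threshold, 0 in the main comparison, was 3 with median scaling, 5 with the replicate block and 0 to 880 with an array left out. At an unadjusted p of 0.05 there were 1988 probes, 3795 with the normexp correction, 1139 with the methods' t-test, which gave 0 after Benjamini-Hochberg adjustment, and 880 to 4165 with an array left out. The cause was not tested. Samples with the same number deviated with a correlation of -0.10, and this value alone cannot tell whether the numbers pair them. The replicate block called 0 of the 43 genes and a crossed block 0 of the 43 genes and 0 of all probes.

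With median scaling, 11 genes were higher, 32 lower and 3 higher without overlap, beside 26, 17 and 9 in the main comparison, and the authors' table gave 5 higher without overlap. Leaving out an array gave 10 to 41 higher, 2 to 33 lower, 9 to 25 higher without overlap and a median of -0.07 to 0.11. With a lone array on a side non-overlap is easier to reach, so the 9 to 25 cannot be set beside the 9 of the main comparison. The shares over all tested probes under these alternatives are not given, also for median scaling and the authors' table, so the counts do not single out the replication genes. Of 645 fold changes of single genes under an alternative, 621 differed from the main value by less than the spread between replicates. Much of this count was fixed beforehand. Alternatives that changed only the filter or the fit kept the same fold changes. Leaving out an array could not shift a fold change beyond this spread. No gene was called in the opposite direction, and 10 of the 43 kept their sign throughout, among them *Orc1*, *Orc2*, *Orc4*, *Orc5*, *Pcna* and *Tyms*. In these named genes the viruses did not overlap, so leaving out an array could not change the sign. Their kept sign was thus largely fixed beforehand as well.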
